A study of Homo sapiens with 12 samples.

Results

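The genes described here are the subunits of the SWI/SNF chromatin remodeling complexes together with several bromodomain proteins, 32 genes chosen by name and not by any measured value. On the array 28 of the 32 were read by a feature with a gene name, out of 17185 genes with a named feature and 45033 features in all. SMARCD2, SS18L1, PBRM1 and BRD1 were not analysed here. The 28 genes were named by 33 features, since ACTL6A had 3 features and SMARCB1, SMARCC2 and BRD8 had 2 each, and of several features the brightest on average was taken for the gene.

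The cells were HCT116, a human colon cancer line, as p53+/+ cells with wild-type p53 and as p53-/- cells that lack active p53. Both were given 4 μM INZ (Inauhzin), a small molecule known as an activator of p53, or the solvent DMSO, and were harvested after 18 hours. The 4 groups are therefore p53+/+ with DMSO, p53+/+ with INZ, p53-/- with DMSO and p53-/- with INZ, each with 3 arrays that the sample labels call biological replicates, 12 one-colour arrays in all. Each genotype is 1 cell line, so a difference between the genotypes is a difference between these 2 lines. Values are log2 RMA intensities, in which a difference of 1 is a doubling of intensity. Probes differ in how bright they are at the same amount of RNA, so values are compared between arrays for one gene and never between genes.

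SWI/SNF complexes use the energy of ATP to slide or eject nucleosomes and so open DNA to transcription factors. They are built around an ATPase, SMARCA4 (BRG1) or SMARCA2 (BRM), with core subunits and an actin-related module, and they come in several forms. Canonical BAF carries ARID1A or ARID1B with a DPF protein, PBAF carries ARID2, PBRM1, PHF10 and BRD7, and the non-canonical complex, ncBAF, carries BRD9 with BICRA or BICRAL. Bromodomains bind acetylated lysine, mostly on histone tails, and are found in some of these subunits as well as in readers such as BRD2 and BRD3 of the BET family.

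Before the results, 2 arrays need naming. On the first principal component of all features, which held 41.3% of the variance, p53+/+ DMSO replicate 1 lay at -175.7 and p53+/+ INZ replicate 3 at 92.4, far from the other 2 arrays of their groups. The first of these was the lowest of the 12 arrays for 11 of the 28 members, beside 21.4% of all genes, and the highest for 5, beside 21.2% of all genes. CDKN1A, the p21 gene and a target of p53 read as a check of the labels, rose with INZ in p53+/+ cells by 1.85 on the log2 scale (adjusted p = 0.0113) and gave 11.75 to 12.84 on the 6 p53-/- arrays. Of 8 colon epithelial markers 6 were above the median feature, with CDX1 and VIL1 below it, while none of 5 leukocyte and none of 3 endothelial markers were. Of 7 mesenchymal markers 2 were above it, COL1A1 at 8.85 to 10.60 and FN1 at 5.05 to 7.80, with VIM, CDH2, ZEB1, COL1A2 and PDGFRB below.

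Averaged over the genotypes, 1 of the 28 members rose and 1 fell with INZ by the test, beside 3.1% and 2.58% of all features. Within each genotype 1 fell, beside 0.333% of features in p53+/+ cells and 0.997% in p53-/- cells. BRD9, the bromodomain subunit that defines ncBAF, fell with INZ in both genotypes, 2.73-fold where p53 was present and 7.48-fold where it was absent. DPF1, a double PHD finger subunit of BAF best known from neurons, rose 3.41-fold on average over the genotypes. No other member passed the test in any comparison. The ATPases, the core, the actin-related module, PBAF and the BET proteins held no member past the test. Not passing does not show that a member was unchanged. In the averaged comparison 7 of the 28 had an unadjusted limma p under 0.05, beside 23.5% of all genes.

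**Figure D1:**
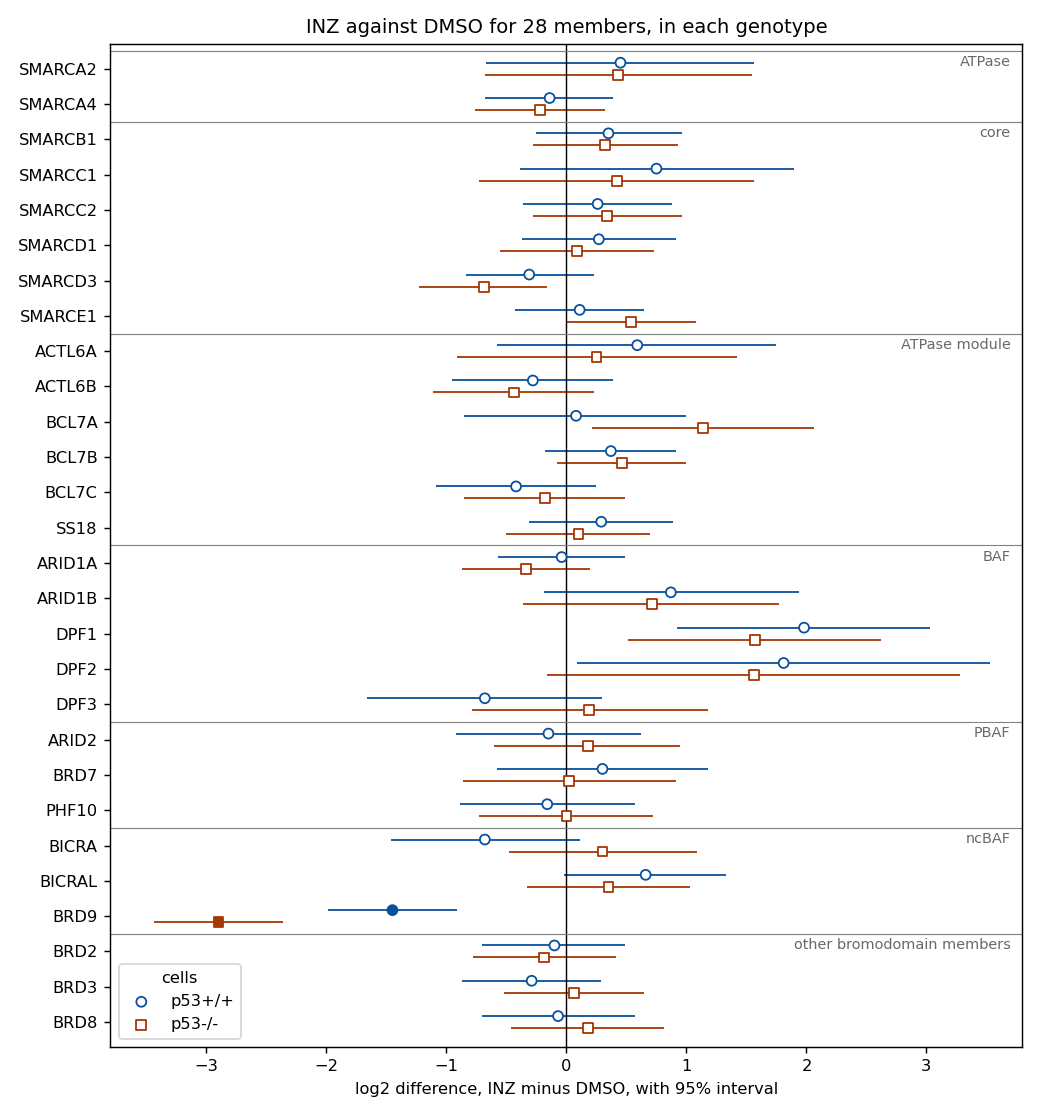
Difference between INZ and DMSO on the log2 scale for the 28 members, ordered by role, in p53+/+ (circles) and p53-/- cells (squares), each from 3 arrays against 3; bars are 95% intervals and filled symbols passed the test. BRD9 at -1.45 and -2.90 is the filled gene, while DPF1 (1.98 and 1.57) and DPF2 (1.81 and 1.56) lie farthest to the right.

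In p53+/+ cells 1 of the 28 members passed limma's test with Benjamini-Hochberg adjustment over all features, and it fell; 0.862% of all features passed in either direction and 0.333% fell. In p53-/- cells it was again 1 that fell, beside 1.48% of features in either direction and 0.997% that fell. Averaged over the genotypes, 1 member rose and 1 fell, beside 3.1% and 2.58% of features, together 5.68%. The median difference of the 28 members was 0.09 in p53+/+ cells, 0.19 in p53-/- cells and 0.17 on average, against -0.01, -0.03 and -0.03 for all genes. The INZ and DMSO arrays did not overlap for 4 of the 28 members in p53+/+ cells, 2 of them higher and 2 lower with INZ, beside 15.9% of all features. In p53-/- cells this was so for 10, of which 7 were higher and 3 lower, beside 25.7%.

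BRD9 was read by 1 feature (NM_001009877). In p53+/+ cells its log2 intensity was 11.38, 11.01 and 10.88 with DMSO and 9.54, 9.73 and 9.65 with INZ. In p53-/- cells it was 11.13, 11.28 and 11.25 with DMSO and 8.59, 8.15 and 8.21 with INZ. All 6 DMSO arrays lay between 10.88 and 11.38, above all 6 INZ arrays, and the 3 p53-/- arrays with INZ were the lowest of the 12. On the linear scale the mean intensity went from 2.21e+03 with DMSO to 799 with INZ in p53+/+ cells, and from 2.39e+03 to 322 in their p53-/- counterparts.

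The log2 difference of BRD9 between INZ and DMSO was -1.45 in p53+/+ cells, with a 95% interval of -1.99 to -0.91 and an adjusted p of 0.0192. The p53-/- cells gave -2.90, with a 95% interval of -3.44 to -2.36 and an adjusted p of 7.15e-05. The averaged change was -2.18 (95% interval -2.56 to -1.79, adjusted p = 2.59e-05), a 4.52-fold decrease. Ordered from the most negative difference, BRD9 was number 94 of 17185 genes in p53+/+ cells and number 9 in p53-/- cells. The p53-/- call was kept under all 20 alternative settings, with values from -3.04 to -2.79. The p53+/+ call was lost in 7 of 20: with only the 6 arrays compared the adjusted p was 0.261, and it lay between 0.0502 and 0.0817 without p53+/+ DMSO replicate 1 or 2, without any one of the 3 p53+/+ INZ arrays, or without both arrays that stand apart. The size moved little in these, from -1.49 to -1.30.

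The difference between the genotypes in the BRD9 response was 1.45 on the log2 scale (95% interval 0.69 to 2.22), with an unadjusted p of 0.00113 and an adjusted p of 0.51, so it did not pass the test. With DMSO the genotypes gave -0.13 (p53+/+ minus p53-/-, 95% interval -0.67 to 0.41, adjusted p = 0.866). With INZ, BRD9 was 2.5-fold higher in p53+/+ than in p53-/- cells, a difference of 1.32 (95% interval 0.78 to 1.86, adjusted p = 0.0332), and the 3 arrays of one line did not overlap those of the other. That call was lost in 11 of 20 alternatives, with adjusted p-values over all alternatives from 0.00981 to 0.182. Among these were the fit with only the 6 arrays compared (0.107) and those without p53+/+ INZ replicate 1 (0.114) or 2 (0.166), without p53-/- INZ replicate 1 (0.0657), 2 (0.182) or 3 (0.18), without p53+/+ DMSO replicate 2 (0.052) and without p53-/- DMSO replicate 1 (0.0615), 2 (0.0599) or 3 (0.0555).

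RefSeq lists 25 transcripts of BRD9, of which 9 are curated, and 2 pseudogenes. With 1 feature, a change of one isoform and a change of the whole gene cannot be told apart, and the cells were read in bulk, so fewer cells with the RNA and less RNA per cell cannot be told apart either. The p53+/+ INZ array that stands apart gave BRD9 at 9.65, between the other 2 arrays of its group.

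**Figure D2:**
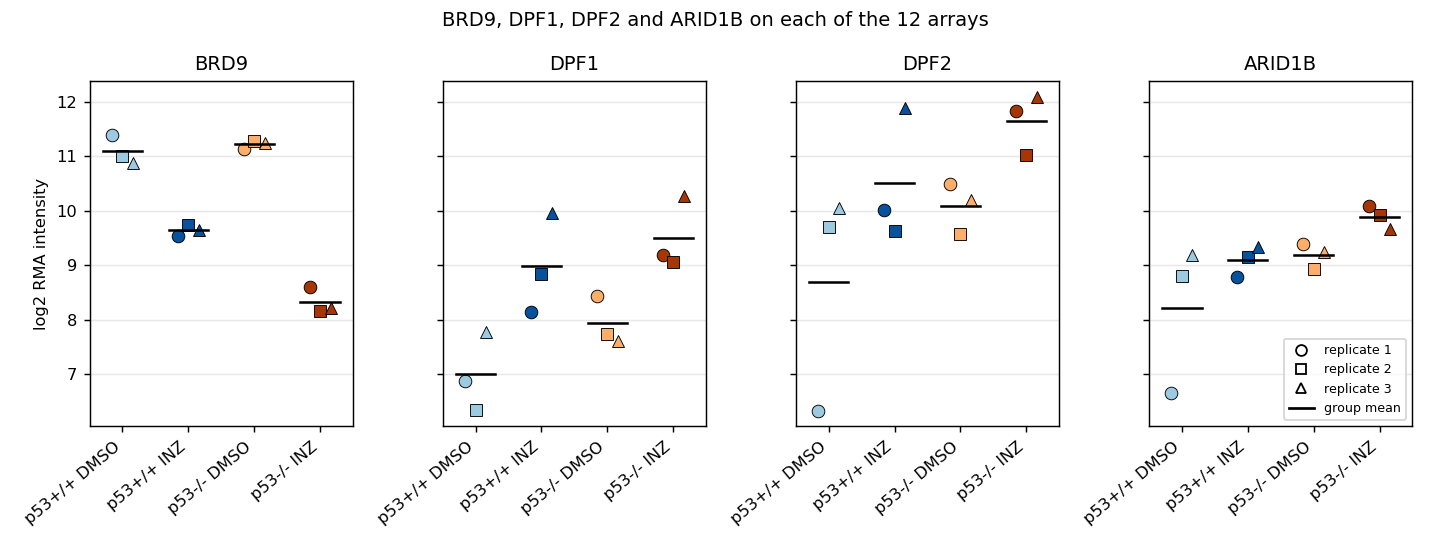
Log2 RMA intensity of BRD9, DPF1, DPF2 and ARID1B on each of the 12 arrays, with the group mean as a line and the replicate number as the symbol. BRD9 is tight within each group and lower with INZ, while DPF2 and ARID1B each have 1 far lower array, p53+/+ DMSO replicate 1, at 6.33 and 6.65.

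The gene BRD9 starts back to back with TRIP13, which encodes an AAA-type ATPase of the mitotic checkpoint and meiosis, and the stretch between the nearest listed starts is shown because the gene with the clearest change reads away from it. It covers chr5:892802-892883 on the minus strand (GRCh38.p14, RefSeq), 82 bases long with 81.7% G and C. Capitals mark an ETS core, CCGGAAG, a motif added after the sequence was read.
BRD9 to TRIP13: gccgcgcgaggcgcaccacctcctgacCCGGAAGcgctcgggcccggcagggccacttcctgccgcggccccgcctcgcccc

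Searched on both strands, the stretch held no GC box (GGGCGG), no CCAAT box (CCAAT) and no p53 half-site. It held 1 ETS core in the spelling CCGGAAG, the only spelling searched. Of the promoters in the RefSeq table, 28.2%, 15.1%, 1.62% and 5.02% held these motifs in a window of the same length. RefSeq gives BRD9 a second start as well, 333 bases from that of TRIP13. A match to letters is a description, and which start the cells use was not measured.

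The other members of ncBAF, BICRA and BICRAL, are scaffold subunits of which each complex carries one, and neither passed the test. BICRAL (NM_015349) was 6.23, 7.21 and 7.07 with DMSO and 7.67, 7.22 and 7.59 with INZ in p53+/+ cells. For p53-/- the values were 7.71, 7.11 and 7.58, then 7.71, 8.15 and 7.59. The p53+/+ groups only just did not overlap, at 7.21 and 7.22, and the p53-/- groups did. The differences were 0.66 (95% interval -0.02 to 1.33, adjusted p = 0.362) and 0.35 (adjusted p = 0.692), and the first was 0.36 without p53+/+ DMSO replicate 1 and 0.31 without both arrays that stand apart. BICRA (NM_015711) gave -0.68 for p53+/+ (adjusted p = 0.424) beside 0.30 for p53-/- (adjusted p = 0.782). With DMSO, BICRA was 9.94, 9.37 and 9.21 in p53+/+ cells, against 8.65, 9.08 and 8.51 without p53, with every p53+/+ array above every p53-/- array and a difference of 0.76 (95% interval -0.03 to 1.55, adjusted p = 0.429).

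Canonical BAF held the member that rose. DPF1 (NM_004647) was 6.88, 6.35 and 7.77 with DMSO and 8.14, 8.84 and 9.96 with INZ in p53+/+ cells. The p53-/- arrays gave 8.44, 7.74 and 7.61 with DMSO and 9.18, 9.05 and 10.27 with INZ. Within each genotype all 3 INZ arrays lay above all 3 DMSO arrays, although the lowest INZ array, p53+/+ replicate 1 at 8.14, lay below the highest p53-/- DMSO array.

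The averaged change of DPF1 was 1.77 on the log2 scale (95% interval 1.03 to 2.52, adjusted p = 0.0102), the 59th most positive of 17185 genes, and it passed the test in all 19 alternatives with values from 1.50 to 1.98. Within a genotype it did not pass. The difference was 1.98 for p53+/+ (95% interval 0.92 to 3.03, adjusted p = 0.086), beside 1.57 for p53-/- (95% interval 0.51 to 2.62, adjusted p = 0.15). It passed in p53-/- cells with only the 6 arrays compared (0.0227), without both arrays that stand apart (0.0483) and with array weights (0.0484), and in p53+/+ cells without p53+/+ DMSO replicate 3, at 2.36 (0.0329). The difference between the genotypes was 0.41 (95% interval -1.08 to 1.90, adjusted p = 1). DPF1 was highest on p53+/+ INZ replicate 3 and p53-/- INZ replicate 3, the arrays with the lowest lower quartiles of intensity, 44.15 and 44.18, and the highest first component, and the part of these array properties in the DPF1 values was not tested.

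The 250 bases before the start of DPF1 are shown as the promoter of the only member that rose, chr19:38229696-38229945 on the minus strand (GRCh38.p14, RefSeq), a window that overlaps no other gene. Capitals mark GC boxes (GGGCGG, read as CCGCCC on this strand) and CCAAT boxes (CCAAT or its complement ATTGG).
DPF1 upstream: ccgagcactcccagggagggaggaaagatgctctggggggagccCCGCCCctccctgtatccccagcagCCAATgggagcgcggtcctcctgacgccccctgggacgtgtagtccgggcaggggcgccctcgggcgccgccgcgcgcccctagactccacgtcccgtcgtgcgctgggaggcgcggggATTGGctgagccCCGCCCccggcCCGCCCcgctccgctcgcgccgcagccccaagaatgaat

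The window held 3 GC boxes, 2 CCAAT boxes, no ETS core (CCGGAAG) and no p53 half-site, and none of these matches overlapped. Of 35116 promoters of the same length 42.6% held a GC box, 32% a CCAAT box, 8.52% an ETS core and 5.57% a p53 half-site. Its share of G and C was 74.8%, against a median of 58%. RefSeq lists 20 transcripts of DPF1, 5 of them curated, so the same limit on isoforms applies as for BRD9.

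DPF2, the member of the DPF family known to be expressed in most tissues, gave differences of similar size that did not pass. DPF2 (NM_006268) was 6.33, 9.70 and 10.05 with DMSO and 10.02, 9.62 and 11.89 with INZ in p53+/+ cells. For p53-/- the values were 10.49, 9.57 and 10.19, then 11.82, 11.02 and 12.09. The p53+/+ groups overlapped and the p53-/- groups did not. The difference was 1.81 for p53+/+ (95% interval 0.09 to 3.53, adjusted p = 0.324), 1.56 for p53-/- (95% interval -0.16 to 3.28, adjusted p = 0.429), and on average 1.69 (95% interval 0.47 to 2.90, adjusted p = 0.0979). The p53+/+ value rested on p53+/+ DMSO replicate 1, without which it was 0.63, and without both arrays that stand apart it was -0.06. The average was 1.09 and 0.75 in these same settings, and without p53+/+ DMSO replicate 3 it was 2.02 and passed (adjusted p = 0.0383). In p53-/- cells the difference passed with only the 6 arrays compared (adjusted p = 0.0187) and without both arrays that stand apart (adjusted p = 0.0162). Like DPF1, DPF2 was highest on replicate 3 of each INZ group.

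DPF3, the third gene of the family, known from heart and muscle, was dim, which here means a mean below that of the median feature at 6.41. It gave -0.68 for p53+/+ (adjusted p = 0.525) beside 0.19 for p53-/- (adjusted p = 0.903). ARID1B and ARID1A carry the AT-rich interaction domain of BAF, and a complex holds one of them. ARID1B (NM_017519) was 6.65, 8.80 and 9.19 with DMSO and 8.79, 9.15 and 9.33 with INZ in p53+/+ cells. For p53-/- the values were 9.39, 8.92 and 9.24, then 10.08, 9.92 and 9.66. Its p53-/- groups did not overlap and its p53+/+ groups did, with p53+/+ DMSO replicate 1 far below the rest.

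For ARID1B the differences were 0.87 in p53+/+ cells (adjusted p = 0.442), which was 0.09 without that array, and 0.71 for p53-/- (95% interval -0.36 to 1.77, adjusted p = 0.587). With INZ the 3 p53+/+ arrays lay below the 3 p53-/- arrays, a difference of -0.80 (95% interval -1.86 to 0.27, adjusted p = 0.618). ARID1A (NM_006015) varied least among the BAF members, from 10.60 to 11.28 over the 12 arrays. With DMSO it was 10.90, 11.01 and 10.85 in p53+/+ cells, against 11.28, 11.11 and 11.09 without p53, groups that did not overlap but differed by only -0.24 (95% interval -0.77 to 0.29, adjusted p = 0.723).

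PBAF was represented by ARID2, which takes the place of ARID1A and ARID1B there, by PHF10, a PHD finger subunit, and by BRD7, the bromodomain subunit. None passed the test with INZ, at -0.16 to 0.30 for p53+/+ and -0.00 to 0.18 for p53-/-. BRD7 (NM_013263) gave 8.23, 9.27 and 10.10 with DMSO in p53+/+ cells and 9.31 to 10.36 on the other 9 arrays, so its low array was again p53+/+ DMSO replicate 1. BRD9, its closest relative in sequence, had its highest value on that array, 11.38.

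Of the ATPases, SMARCA4 (NM_003072) stayed within 11.66 to 12.28 over the 12 arrays, the narrowest range of all 28 members. It gave -0.14 for p53+/+ (95% interval -0.68 to 0.39, adjusted p = 0.836) beside -0.22 for p53-/- (95% interval -0.76 to 0.32, adjusted p = 0.767), so the intervals leave out a change of a doubling in either direction. SMARCA2 (NM_003070) was dim, at 5.00 to 7.43, with its highest value on p53+/+ DMSO replicate 1. Its differences were 0.45 (adjusted p = 0.734) and 0.43 (adjusted p = 0.779), with intervals that reach past 1.

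The core holds SMARCB1 (SNF5), the scaffolds SMARCC1 and SMARCC2, the SMARCD subunits and SMARCE1 (BAF57). In each genotype 5 of its 6 measured members had a positive difference with INZ and SMARCD3 a negative one, and none passed the test. Of all genes 49.1% had a positive difference in p53+/+ cells and 47.4% in p53-/- cells. SMARCD3 (NM_001003801), the SMARCD gene best known from heart muscle, was 10.08, 10.03 and 9.81 with DMSO and 9.42, 9.05 and 9.37 with INZ in p53-/- cells, groups that did not overlap. The difference was -0.69 (95% interval -1.23 to -0.16, unadjusted p = 0.0146, adjusted p = 0.218), and in p53+/+ cells it was -0.31 (adjusted p = 0.603). With INZ, SMARCD3 was 9.71, 9.62 and 10.06 in p53+/+ cells, all above the p53-/- arrays, with a difference of 0.52 (95% interval -0.02 to 1.05, adjusted p = 0.5).

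SMARCE1 (NM_003079) was 11.53, 11.38 and 11.36 with INZ in p53+/+ and 11.69, 12.18 and 11.58 in p53-/- cells. These groups did not overlap, with a difference of -0.39 (95% interval -0.93 to 0.15, adjusted p = 0.639). SMARCC1 (NM_003074) was 7.27, 9.60 and 9.76 with DMSO in p53+/+ cells and 9.03 to 10.46 on the other 9 arrays. Its difference with INZ in p53+/+ cells, 0.75, was -0.05 without p53+/+ DMSO replicate 1. The lesser feature of SMARCC2 (NM_139067) behaved like it, with 6.78 on that array and 8.48 to 10.84 on the rest, while the feature that stood for SMARCC2 (NM_003075) lay between 12.84 and 13.91.

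SMARCB1 (NM_003073) was 12.05, 12.29 and 12.41 with DMSO in p53+/+ cells, against 12.96, 12.75 and 12.48 without p53. The groups did not overlap and differed by -0.48 (95% interval -1.09 to 0.13, adjusted p = 0.513). Its other feature (NM_001007468) gave a difference of -0.54 (adjusted p = 0.53) and did not overlap either. Both features of SMARCB1 thus lay on the same side in the p53+/+ arrays, without passing the test.

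The actin-related module was made up of ACTL6A (BAF53A), its neuronal relative ACTL6B, the BCL7 proteins and SS18, the gene fused in synovial sarcoma. With INZ 4 of 6 had positive differences in each genotype, beside 49.1% and 47.4% of all genes, and none passed the test. BCL7A (NM_001024808), which was dim, was 5.59, 5.23 and 5.27 with DMSO and 6.22, 6.55 and 6.74 with INZ in p53-/- cells, groups that did not overlap. The difference was 1.14 (95% interval 0.21 to 2.06, adjusted p = 0.247), and it passed with only the 6 arrays compared (adjusted p = 0.0252) and without both arrays that stand apart (adjusted p = 0.0424). In p53+/+ cells, where the arrays ranged from 4.90 to 6.73, the difference was 0.08 (adjusted p = 0.957). BCL7B gave 0.37 and 0.46 and BCL7C -0.42 and -0.18 in p53+/+ and p53-/- cells, with adjusted p-values from 0.466 to 0.86.

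The 3 features of ACTL6A did not give the same value for INZ. In p53+/+ cells the feature that stood for the gene (NM_178042) gave 0.59 (adjusted p = 0.657), NM_004301 gave -0.02 (adjusted p = 0.991) and NM_177989 gave 1.10 (adjusted p = 0.241). Between the genotypes they lay on the same side, at -1.05 (adjusted p = 0.18), -1.28 (adjusted p = 0.0665) and -0.89 (adjusted p = 0.137) for p53+/+ minus p53-/- averaged over the treatments. NM_004301 was 6.11 to 8.06 on the p53+/+ arrays and 7.72 to 9.19 on the p53-/- arrays.

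Of the bromodomain proteins outside SWI/SNF, BRD2 and BRD3 are BET readers of acetylated histones and BRD8 is a subunit of the TIP60 acetyltransferase complex. BRD2 (NM_005104) ranged from 11.91 to 12.82, BRD3 (NM_007371) from 10.23 to 11.01 and BRD8 (NM_006696) from 9.50 to 10.36 over the 12 arrays. BRD3 was 10.86, 10.97 and 11.01 with DMSO and 10.68, 10.46 and 10.83 with INZ in p53+/+ cells, which did not overlap and differed by -0.29 (95% interval -0.87 to 0.29, adjusted p = 0.662). In p53-/- cells BRD3 gave 0.06 (adjusted p = 0.953). BRD2 gave -0.10 and -0.19, and BRD8 -0.07 and 0.18, with adjusted p-values from 0.83 to 0.943. The other feature of BRD8 (NM_139199), which was dim, had the opposite signs. It gave 0.18 in p53+/+ cells (adjusted p = 0.872) and -0.63 in p53-/- cells (adjusted p = 0.51). With INZ its p53+/+ arrays lay above its p53-/- arrays, a difference of 0.73 (adjusted p = 0.541). The BRD9 decrease was therefore not matched by a call for BRD2, BRD3, BRD7 or BRD8. The differences between BRD9 and these genes were not tested.

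**Figure D3:**
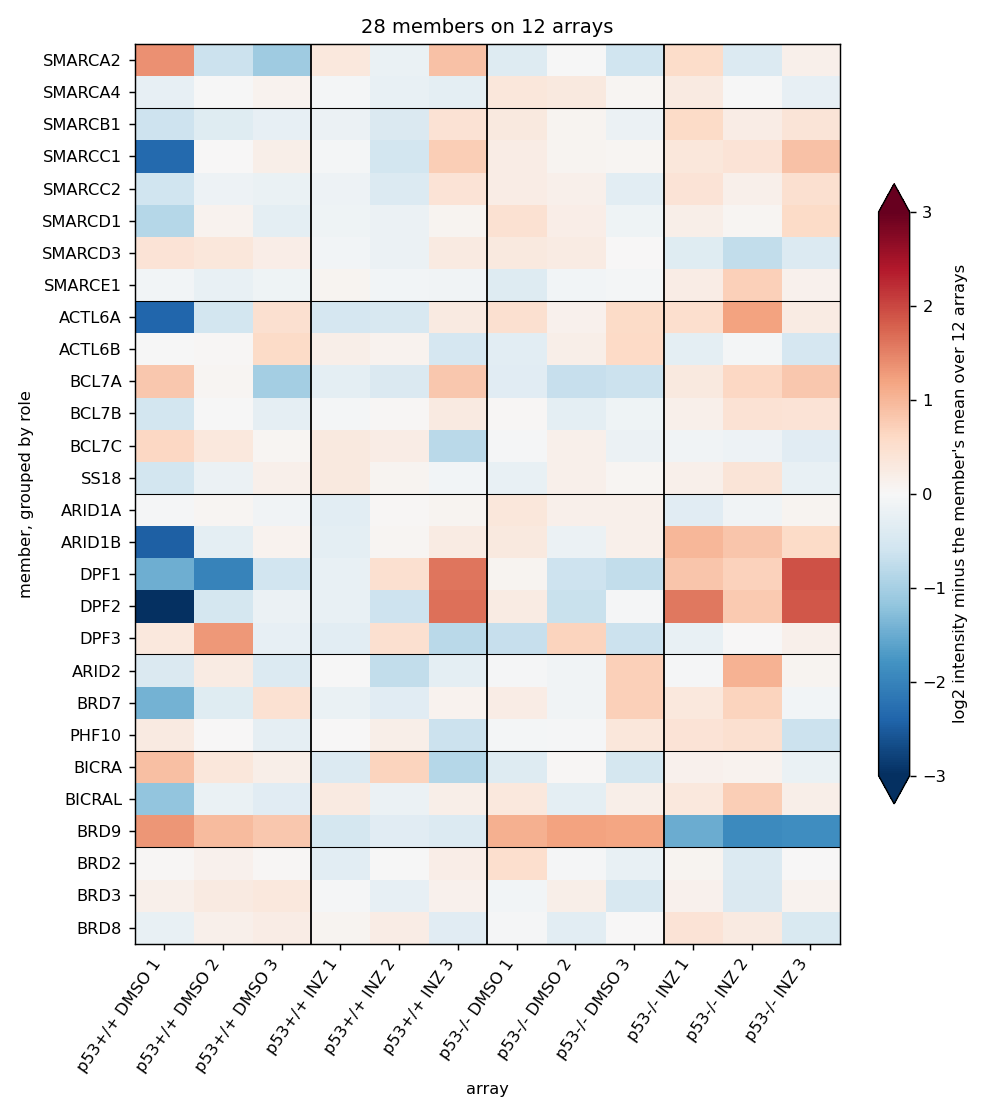
Log2 intensity of the 28 members on the 12 arrays, each member centred on its own mean, with members ordered by role and groups divided by vertical lines. The column of p53+/+ DMSO replicate 1 holds the darkest low values (DPF2, ARID1B, ACTL6A and SMARCC1), and the row of BRD9 is low on all 6 INZ arrays.

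Between the genotypes no member passed the test with DMSO, beside 0.211% of all features. An unadjusted p under 0.05 was given by limma for 1 member (ACTL6A, -1.21), beside 12% of features. That value was -0.43 without p53+/+ DMSO replicate 1, where ACTL6A lay at 6.24 against 8.07 and 9.09, and -1.86 without replicate 3 of the same group. The groups did not overlap for 3 members with DMSO and 4 with INZ, beside 17.6% and 15.6% of features. With INZ 1 member was higher in p53+/+ cells, BRD9, beside 0.413% of features higher and 0.484% in either direction. Averaged over the treatments none passed, beside 1.15% of features, and 6 members had an unadjusted p under 0.05, beside 18.1% of features: BRD9 at 0.60, and ACTL6A, ARID1B, ARID2, DPF2 and SMARCB1 at -1.26 to -0.46. The median over the 28 members was -0.17 with DMSO, -0.24 with INZ and -0.16 on average. For all genes it was -0.01, 0.01 and 0.01. Of the averaged differences 18 of the 28 were negative, beside 8344 of 17185 genes. No member passed for the difference between the genotypes in the INZ effect, where 0.0178% of features passed and 1 member, BRD9, had an unadjusted p under 0.05, beside 4.71% of features.

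The array carried features for other chromatin regulators, in lists written with earlier results of these data known. Averaged over the genotypes, 1 of 10 ISWI remodelers rose with INZ, BAZ1A (ACF1) by 1.17 (adjusted p = 0.0493), and the counts of this and the following lists stand beside 3.1% of all features that rose and 2.58% that fell. Among 19 CHD and NuRD genes 1 rose, MTA3, a NuRD subunit, by 1.58 (adjusted p = 0.0228). Of 25 genes of the INO80, SRCAP and TIP60 complexes 1 fell, EP400, the ATPase of the TIP60 complex, by 0.79 (adjusted p = 0.0215). Of 23 further bromodomain genes 1 rose, ASH1L, a histone H3 methyltransferase, by 1.25 (adjusted p = 0.0291). Within the genotypes the only call in these lists was ASH1L in p53-/- cells, at 1.85 (adjusted p = 0.049).

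Of 25 Polycomb genes, by the same averaged comparison, 1 rose and 1 fell, beside the same 3.1% and 2.58% of features. EZH2, the methyltransferase of PRC2, rose by 1.54 (adjusted p = 0.04). It gave 2.22 in p53+/+ cells (adjusted p = 0.097) and 0.86 in p53-/- cells (adjusted p = 0.561). PHF19, a PRC2 accessory protein, fell by 1.05 (adjusted p = 0.0151). The medians of the 5 lists were 0.34, 0.06, 0.09, 0.43 and 0.19, all within the spread of the roles inside SWI/SNF, whose medians ran from -0.19 in ncBAF to 0.79 in BAF. Between the genotypes 2 of the ISWI genes were lower in p53+/+ cells on average over the treatments. There 1.15% of all features passed in either direction. RSF1, a partner of SMARCA5, gave -1.20 (adjusted p = 0.0208), and SMARCA5 (SNF2H), the ISWI ATPase, gave -1.30 (adjusted p = 0.045). How the calls in these 5 lists depend on single arrays was not examined.

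**Figure D4:**
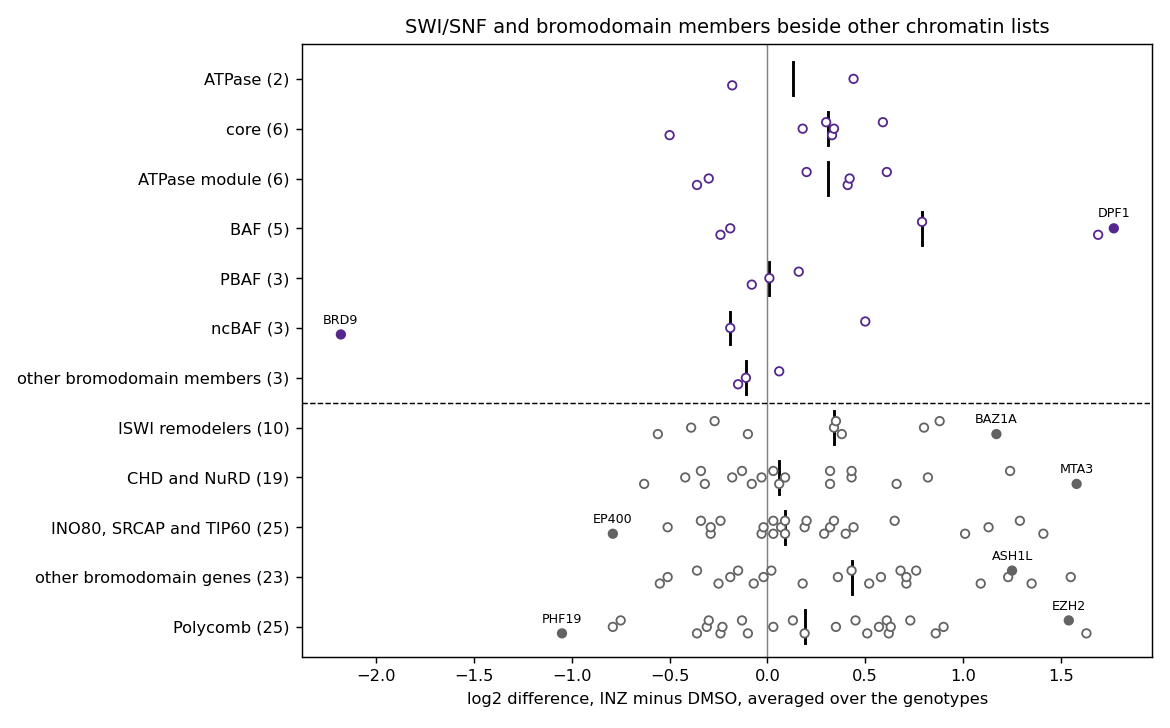
Difference between INZ and DMSO on the log2 scale averaged over the genotypes, 1 point per gene, for the roles inside SWI/SNF and the other bromodomain members (above the dashed line) and for 5 lists of other chromatin regulators (below it), with the number of genes measured; black bars are medians and filled, named points passed the test. BRD9 at -2.18 lies lower, and DPF1 at 1.77 higher, than every gene of the other lists.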

How the data were processed

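RNA of 12 samples, 3 per group, was labelled with Cy3 and hybridised by a service company to NimbleGen arrays. The authors deposited 1 table of RMA intensity values on a linear scale (RMA is named in the submitters' processing notes; its version, its settings and the annotation build were not stated). The deposited intensities were log2-transformed with no pseudocount. The table has no detection calls and no depth, and the number of arrays limits the precision.

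All 12 arrays entered 1 limma fit (3.58.1, R 4.3.3) of 4 group means without covariates, from which 7 comparisons were drawn. P-values were adjusted by Benjamini-Hochberg over all 45033 features with a threshold of 0.05, and intervals are 95% intervals of the moderated estimates. The fit was tested on simulated data, and no result above rests on that test. The members, lists, roles and alternatives were chosen with earlier results of these data known. Full values are given for members past the test and, in each comparison, for up to 4 others with the largest differences whose groups do not overlap; SMARCD3 with INZ in p53-/- cells, DPF2, ARID1B, SMARCC1, ACTL6A, BRD7 and the other features of a gene were added after their values were seen. Of each other list the genes past the test are named.

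Alternatives were a variance trend, leaving out dim features, quantile normalization, median centring, the replicate number as a block, only the arrays compared, each array left out in turn, both arrays that stand apart left out, array weights, and averaging a gene's features. Promoter sequences and gene names came from RefSeq tables (GRCh38.p14) and the platform annotation. Python 3.11.15 and matplotlib 3.10.9 were used for tables and figures.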

Additional observations from a re-analysis of the deposited data

How the results depend on the processing

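Over 20 alternatives (19 for averaged values and the interaction), the count of members past the test kept within 1.5 times its value in 112 of 137 cases. With only the arrays compared it was 0 instead of 1 for INZ in p53+/+ cells, 4 instead of 1 in p53-/- cells (BCL7A, BRD9, DPF1 and DPF2) and 0 instead of 1 for p53+/+ against p53-/- with INZ. Without both arrays that stand apart these counts were 0, 4 (the same genes) and 2 (BRD9 and DPF2), and 1 instead of 0 for the genotypes averaged over the treatments (DPF2). Array weights gave 2 in p53-/- cells (BRD9 and DPF1).

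Leaving out 1 array at a time gave 0 to 2 members for INZ in p53+/+ cells, 1 to 1 in p53-/- cells, 2 to 3 for INZ averaged, 0 to 1 for p53+/+ against p53-/- with INZ, 0 to 1 for the genotypes averaged, and 0 to 0 for the genotypes with DMSO and for the interaction. The gene added for INZ averaged was DPF2, without p53+/+ DMSO replicate 3, and for the genotypes averaged ACTL6A, without the same array.

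Values for INZ in p53+/+ cells that changed sign had not passed the test. With 1 array left out, SMARCC1 ran from -0.05 to 1.20, ACTL6A from -0.19 to 1.23 and BRD7 from -0.19 to 0.75. Without p53+/+ DMSO replicate 1 they were -0.05 for SMARCC1, -0.19 for ACTL6A and -0.19 for BRD7. Without both arrays that stand apart they were -0.06 for DPF2, -0.03 for ARID1B, -0.40 for SMARCC1, -0.45 for ACTL6A and -0.31 for BRD7. The other causes of changed calls were not tested.

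Same replicate numbers did not consistently pair the arrays. Deviations of same-numbered arrays correlated at -0.338 to 0.44, over 0.1 in 7 of 18 pairs, and 5 of 12 arrays correlated best with their own number. Pairs of replicate 3 ran from -0.198 (p53-/- DMSO with p53-/- INZ) to 0.44 (p53+/+ DMSO with p53+/+ INZ). Replicate 3 of p53+/+ INZ and of p53-/- INZ, where DPF1 and DPF2 were highest, correlated at 0.405. With the replicate number as a block, the count for p53+/+ against p53-/- with INZ was 0 (BRD9, adjusted p = 0.0542), and the counts of the other comparisons were the same as without it.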

Other observations

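TRIP13, which starts next to BRD9 in the opposite direction, was looked at after the values of BRD9 were seen. TRIP13 (NM_004237) was 9.50, 10.11 and 10.53 with DMSO and 10.85, 10.86 and 11.59 with INZ in p53+/+ cells. For p53-/- it was 10.92, 10.66 and 11.02 with DMSO, and the INZ arrays lay at 11.58 or above. In each genotype the INZ arrays lay above the DMSO arrays, the opposite of BRD9. TRIP13 rose by 0.96 on average over the genotypes (adjusted p = 0.0242), while within a genotype it gave 1.05 (adjusted p = 0.155) and 0.87 (adjusted p = 0.225) and did not pass. On the other side of BRD9, the palmitoyltransferase gene ZDHHC11 (NM_024786) rose by 0.90 on average (adjusted p = 0.0215). It rose by 1.30 in p53-/- cells (adjusted p = 0.0407) and gave 0.51 in p53+/+ cells (adjusted p = 0.448). Of all features 3.1% rose in the averaged comparison, and 1.48% passed in either direction in p53-/- cells. The lowest TRIP13 value, 9.50, was on p53+/+ DMSO replicate 1, an array that stands apart. How the calls of TRIP13 and ZDHHC11 depend on single arrays was not examined. Of the neighbours of DPF1 with a named feature, ZNF573, SIPA1L3, PPP1R14A, SPINT2 and YIF1B, none passed the test, with averaged differences from -0.51 to 0.33.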
